A study of Mus musculus with 48 samples.

Results

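The CD28 family receptors and B7 ligands described here are 8 genes, the receptors Cd28, Icos and Ctla4 and the ligands Cd80, Cd86, Cd274 (PD-L1), Pdcd1lg2 (PD-L2) and Icosl (ICOS ligand). They were taken by symbol out of 34932 genes measured by RNA sequencing. The mice were C57BL/6J animals carrying subcutaneous B16F10 melanoma, a transplantable mouse tumor line. They were either wild type (WT) littermates or carried CD4-Cre, a loxP-flanked Yap gene and a lox-stop-lox EYFP reporter (Yap-cKO). CD4-Cre is active from the double-positive stage of thymic development, so the deletion reaches both T-cell lineages, while the other CD45+ cells are not its intended target. The sorts were of CD4+ T cells, of CD8+ T cells and of CD45+ cells without CD4 and CD8 (called CD45+ cells here). Each was taken from tumors, as tumor-infiltrating leukocytes (TILs), and from tumor-draining inguinal lymph nodes (TDLNs). With 2 genotypes, 3 sorts and 2 tissues there were 12 groups of 4 libraries, 48 in all. The labels number the libraries of a group 1 to 4 but do not say that each number is a separate mouse, so p-values measure the spread between these libraries.

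T cells need a second signal beside the antigen receptor. CD28 gives it when it binds CD80 or CD86 on antigen-presenting cells, CTLA-4 competes for the same ligands with higher affinity and restrains the response, and ICOS binds ICOS ligand and supports activated and regulatory T cells. PD-L1 and PD-L2 bind PD-1, an inhibitory receptor of the same family that is not among the 8 genes, and PD-L1 can also bind CD80. The question put to the libraries was how deletion of Yap, a transcriptional co-activator of the Hippo pathway, changes the expression of these receptors and ligands in T cells and their neighbors, and whether it does so in the tumor, the lymph node or both.

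On GRCm38 with GENCODE M21, the receptors form a single cluster on the plus strand of chromosome 1, with Cd28 at 60716800 to 60773359, Ctla4 at 60887000 to 60915832 and Icos at 60977927 to 61000320. Cd274 (29367455 to 29388095) and Pdcd1lg2 (29410919 to 29471161) are neighbors on the plus strand of chromosome 19. Cd86 (36603869 to 36666081, minus strand) and Cd80 (38455561 to 38496335, plus strand) both lie on chromosome 16, and Icosl lies on the plus strand of chromosome 10 at 78069302 to 78083913.

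Each library held 12656510 to 24213892 counts on genes, and 3 counts correspond to 0.124 to 0.237 units of CPM, the count scaled to library size. Yap1, the deleted gene, was at 14.8 to 27.3 CPM in WT CD4+ TILs and at 1.63 to 5.58 CPM in Yap-cKO CD4+ TILs (log2 fold change -2.58 ± 0.44 SE, adjusted p = 0.00974 in edgeR's quasi-likelihood test, the test used throughout). In CD8+ TILs it fell from 13.0 to 27.1 CPM to 2.37 to 6.37 CPM (log2 fold change -2.21 ± 0.38, adjusted p = 0.018). TDLN levels of Yap1 were low with or without the deletion (1.13 to 4.53 CPM in the T-cell sorts) and the genotypes overlapped. The sorts matched their labels for the most part, with Cd3e at 136 to 1520 CPM in the T-cell sorts and at 1.36 to 13.2 CPM in the CD45+ sorts. The tumor sorts were not equally pure, however. The sum of 10 melanoma markers was 5709 to 17851 CPM in WT CD4+ TILs against 171 to 2362 CPM in Yap-cKO CD4+ TILs, and 3923 to 14051 CPM against 41.5 to 2558 CPM in CD8+ TILs. Yap1 thus moved together with these markers, and the part of tumor-cell RNA in its difference was not tested. The sum of 15 T-lineage markers was 1892 to 7039 CPM in WT libraries and 7190 to 11484 CPM in Yap-cKO CD4+ TILs, and 2196 to 5845 CPM against 6724 to 7103 CPM in CD8+ TILs. The sum of 4 Y-linked genes was 43.3 to 423 CPM in WT libraries 1 to 3 of every sort and 2.51 to 19.0 CPM in WT library 4 and in all Yap-cKO libraries, so that Y-linked expression and genotype ran together except in WT library 4. In bulk libraries such as these, fewer cells of a type and less RNA per cell cannot be told apart.

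**Figure D1:**
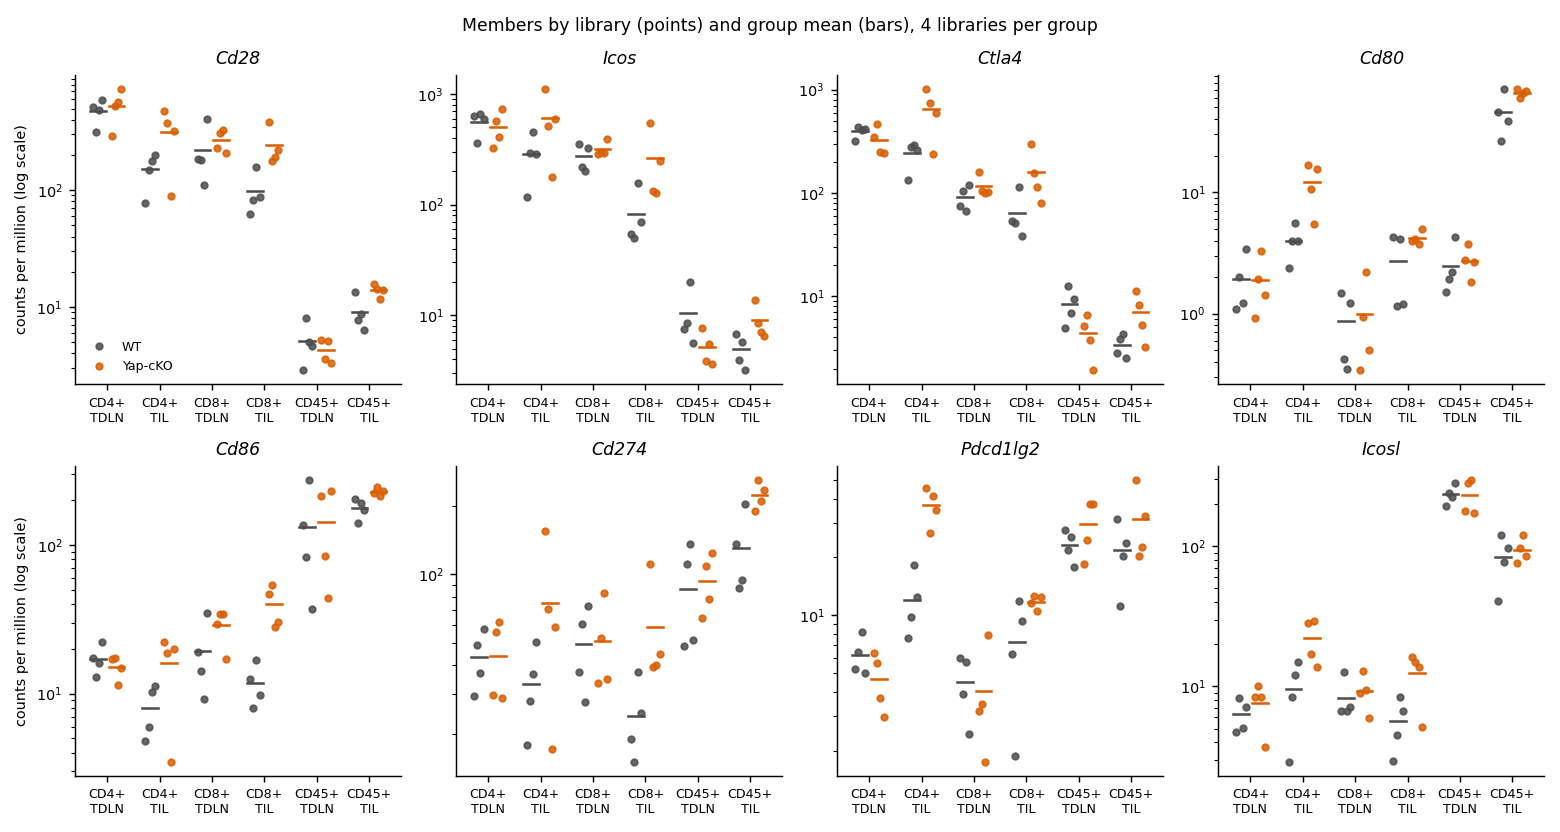
CPM of each of the 8 genes (log axis) in each of the 48 libraries, by sort, tissue and genotype, with 1 point per library. Cd28, Icos and Ctla4 sit above every CD45+ library in all 32 T-cell libraries, and Icosl sits highest in the CD45+ libraries of TDLNs.

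The 3 receptors were T-cell genes in these sorts. On the length-scaled TPM scale, Icos and Ctla4 were the most abundant of the 8 genes in WT CD4+ TDLN cells, at 412 ± 119 and 311 ± 51.7 TPM (mean ± SD, n = 4), followed by Cd28, the constitutive costimulatory receptor, at 173 ± 61.1 TPM. In CD45+ cells their means were between 1.53 and 6.65 TPM. Taking CPM of 1 gene across groups, Cd28, Icos and Ctla4 each had all 8 T-cell groups above all 4 CD45+ groups, and the step from WT CD8+ TILs to the highest CD45+ group was the only neighboring step in the order without overlap. The highest group mean was 124 times the lowest for Cd28, 123 times for Icos and 193 times for Ctla4. T-lineage markers were themselves not absent from the CD45+ sorts, with a summed level of 166 to 562 CPM, so the low receptor values there were measured beside a low level of T-cell RNA.

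For Cd28 the highest group was Yap-cKO CD4+ TDLN cells, with 288, 521, 569 and 740 CPM in libraries 1 to 4, and WT CD4+ TDLN cells had 513, 316, 484 and 596 CPM. WT CD4+ TILs had 77.6, 148, 178 and 201 CPM and Yap-cKO CD4+ TILs 475, 379, 89.3 and 322 CPM. Yap-cKO library 3 thus fell among the WT libraries while the other 3 stood above all of them. WT CD8+ TILs had 62.3, 82.1, 158 and 87.1 CPM and Yap-cKO CD8+ TILs 385, 177, 193 and 219 CPM, without overlap between the genotypes. In CD8+ TDLN cells Cd28 was at 186, 182, 111 and 405 CPM in WT libraries and at 227, 306, 328 and 207 CPM in Yap-cKO libraries, which overlap.

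Icos, the inducible costimulator, was highest in Yap-cKO CD4+ TILs, where its SD across libraries was also the largest (391 CPM), at 1121, 512, 178 and 601 CPM. WT CD4+ TILs had 118, 291, 456 and 285 CPM, so that again Yap-cKO library 3 lay within the WT range. CD8+ TILs had 54.1, 50.3, 158 and 69.6 CPM in WT libraries and 547, 133, 127 and 247 CPM in Yap-cKO mice, where Yap-cKO libraries 2 and 3 lay below WT library 3. Ctla4, which encodes the inhibitory receptor, was highest in Yap-cKO CD4+ TILs too, at 1024, 739, 241 and 598 CPM against 134, 281, 292 and 259 CPM in WT CD4+ TILs. In CD8+ TILs Ctla4 was at 53.8, 51.0, 115 and 38.4 CPM in WT libraries and at 296, 155, 114 and 79.7 CPM in Yap-cKO libraries, which overlap through WT library 3.

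Regulatory T cells express Ctla4 and Icos at high levels, and their markers differed between the same groups. Foxp3, the transcription factor of that lineage, was at 81.3, 198, 255 and 167 CPM in WT CD4+ TILs and at 576, 507, 395 and 453 CPM in Yap-cKO CD4+ TILs. The summed level of 7 regulatory T cell markers was 451 to 1265 CPM in WT libraries and 2190 to 2804 CPM in Yap-cKO CD4+ TILs. Of the 7, 3 rose past the thresholds, as did 1.36% of all genes tested. The part of these cells in the Ctla4 and Icos values was not tested.

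The ligands were found mainly in the CD45+ sort, with a different order for each. Because Cd80 and Pdcd1lg2 are the ligands that rose in TILs over TDLNs in both T-cell sorts of Yap-cKO mice (given with the tissue comparisons), the 250 bases upstream of their RefSeq starts are shown, from GRCm38.p6, plus strand, chr16:38458683-38458932 for Cd80 (the start of transcript Cd80-201) and chr19:29410669-29410918 for Pdcd1lg2.
Cd80: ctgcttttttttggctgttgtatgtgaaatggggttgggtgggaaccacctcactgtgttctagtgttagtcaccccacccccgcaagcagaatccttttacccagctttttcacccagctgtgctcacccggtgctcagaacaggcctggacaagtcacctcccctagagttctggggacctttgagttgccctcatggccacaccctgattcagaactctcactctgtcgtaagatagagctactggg
Pdcd1lg2: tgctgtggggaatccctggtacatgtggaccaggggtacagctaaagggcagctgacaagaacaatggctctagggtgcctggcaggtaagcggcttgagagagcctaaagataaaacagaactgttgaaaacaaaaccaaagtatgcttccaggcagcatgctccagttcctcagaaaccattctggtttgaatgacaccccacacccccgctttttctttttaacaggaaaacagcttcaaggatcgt
Promoter windows were at hand for 5 of the 8 genes (Ctla4, Icosl, Cd80, Cd274 and Pdcd1lg2). The windows run from 250 bases before to 50 after the start. They were searched on both strands for GGAATG, the core bound by TEAD factors, through which Yap acts, and for the core of the interferon-stimulated response element (ISRE). These letters were in 0 of the 5 windows, and 14.7% and 3.44% of all 32851 windows held them. At such shares 5 windows are too few to show an absence. The search covers this window only, so no letters are set in capitals.

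Cd80, which binds both CD28 and CTLA-4, was highest in CD45+ cells of the tumor. It was at 46.1, 26.5, 71.4 and 38.3 CPM in WT libraries and at 71.2, 59.4, 65.9 and 68.2 CPM in Yap-cKO CD45+ TILs, against 1.51 to 4.25 CPM in all CD45+ TDLN libraries. In the T-cell sorts it was at 0.342 to 5.60 CPM in every group other than Yap-cKO CD4+ TILs, which had 16.8, 10.7, 5.52 and 15.5 CPM against 2.38, 3.98, 5.60 and 3.98 CPM in WT CD4+ TILs. The CD8+ TDLN libraries ran from 0.342 to 2.19 CPM, and the 4 lowest Cd80 values of the 48 libraries were among them.

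Cd86, the other ligand of CD28 and CTLA-4, was abundant in CD45+ cells of both tissues. CD45+ TILs had 204, 142, 193 and 172 CPM in WT libraries and 224, 245, 212 and 230 CPM in Yap-cKO mice, so all Yap-cKO libraries stood above all WT libraries. CD45+ TDLN cells ranged from 36.9 to 274 CPM in WT libraries and from 43.7 to 233 CPM in Yap-cKO mice. In CD8+ TILs Cd86 was at 12.6, 8.04, 16.7 and 9.80 CPM in WT libraries and 46.5, 54.0, 28.3 and 30.3 CPM in Yap-cKO libraries, without overlap. CD4+ TILs held 4.76, 5.94, 10.2 and 11.3 CPM in WT libraries and 22.1, 18.8, 3.48 and 19.9 CPM in Yap-cKO mice, where library 3 was the lowest of all 8.

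Cd274 had a ratio of 9.24 between its highest and lowest group mean, close to the 9.12 of Pdcd1lg2. All 11 neighboring groups in its order overlapped, from Yap-cKO CD45+ TILs (189, 259, 209 and 234 CPM) down to WT CD8+ TILs (19.1, 15.2, 37.3 and 24.7 CPM). Yap-cKO CD8+ TILs had 111, 39.5, 40.2 and 44.7 CPM, all above the WT libraries. Yap-cKO CD4+ TILs had 155, 70.2, 17.3 and 58.6 CPM against 18.0, 28.0, 36.8 and 50.6 CPM in WT, and Yap-cKO library 3 was again the lowest of the 8.

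Pdcd1lg2 was the only ligand whose highest group mean, in CPM, was in a T-cell sort. Yap-cKO CD4+ TILs had 45.3, 26.5, 41.3 and 35.0 CPM and WT CD4+ TILs 7.61, 9.77, 18.1 and 12.3 CPM. These groups did not overlap, and for this gene Yap-cKO library 3 was with the others. CD45+ cells held 11.2 to 49.9 CPM in the tumor and 17.8 to 37.5 CPM in the lymph node. Per length, Pdcd1lg2 was at 34.9 ± 9.0 TPM in Yap-cKO CD4+ TILs, beside 33.0 ± 27.0 TPM for Cd274 in the same libraries.

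Icosl showed the reverse tissue order. It was at 193, 240, 224 and 282 CPM in WT libraries and 177, 281, 297 and 171 CPM in Yap-cKO CD45+ TDLN cells, and at 40.8, 121, 76.6 and 97.8 CPM and 75.8, 96.8, 119 and 84.7 CPM in the corresponding CD45+ TILs. All TDLN libraries stood above all TIL libraries. B cells, which express Icosl, were a major part of the CD45+ sort in lymph nodes, with a summed level of 8 B cell markers of 9545 to 11740 CPM against 275 to 1915 CPM in CD45+ TILs. In T-cell sorts Icosl lay between 2.90 and 29.2 CPM.

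**Figure D2:**
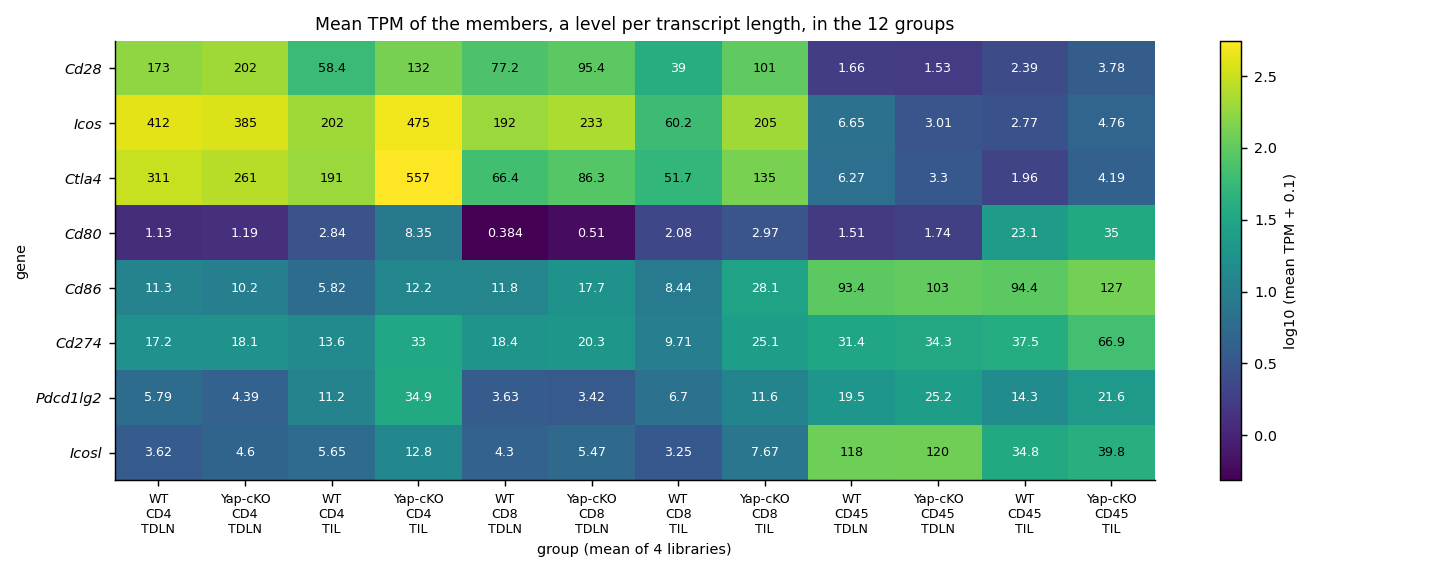
Mean TPM of the 8 genes in each of the 12 groups (n = 4 libraries per group). The receptors dominate in T-cell groups, Icosl (118 and 120 TPM) and Cd86 (93.4 and 103 TPM) in CD45+ TDLN groups, and Cd86 (94.4 and 127 TPM) in CD45+ TIL groups.

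In CD4+ TILs, the ligands Pdcd1lg2 and Cd80 were higher in Yap-cKO than in WT mice. They were the 2 of 8 genes past the thresholds, Pdcd1lg2 (log2 fold change 1.74 ± 0.35, adjusted p = 0.0159) and Cd80 (1.71 ± 0.44, adjusted p = 0.0373), where a call needs an adjusted p under 0.05 over all genes tested and an absolute log2 fold change above 1. Of all 14205 genes tested in these libraries, 1.36% were called higher. Ctla4 followed at 1.53 ± 0.44 (adjusted p = 0.0566). The remaining genes had values of 1.30 ± 0.49 for Icosl, 1.25 ± 0.56 for Cd274, 1.16 ± 0.48 for Cd28, 1.16 ± 0.53 for Icos and 1.09 ± 0.54 for Cd86, with adjusted p-values of 0.136 to 0.236. All 8 values were above 0, with a median of 1.27 beside 0.14 over all genes tested. The study itself had picked out several of the 8 genes from these samples, and a direction shared by them is no independent evidence.

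One library weighed on this result. Yap-cKO CD4+ TIL library 3 had the lowest Ptprc level of its group, 91.6 CPM against 945 to 1264 CPM in the other 3, while its Cd3e was the highest of the group (1516 CPM). Its Foxp3, 395 CPM, was the lowest of the group and above all WT CD4+ TIL libraries (81.3 to 255 CPM). Its melanoma markers summed to 2362 CPM against 171 to 882 CPM in the other 3, and its macrophage and monocyte markers to 635 CPM against 121 to 169 CPM, and their part in its values was not tested. Without it, 7 of the 8 genes were called higher, with Icosl the exception, and Cd28 (1.43, adjusted p = 0.0122) and Ctla4 (1.77, adjusted p = 0.00389) were among them. Without WT library 1, WT library 2 or Yap-cKO library 4, 0 were called. In the 4 other fits with a library left out, Pdcd1lg2 alone was called.

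In CD8+ TILs a different pair of genes passed. Cd86 rose by 1.78 ± 0.32 on the log2 scale (adjusted p = 0.018) and Cd28 by 1.35 ± 0.35 (adjusted p = 0.0333), which is 2 of 8 genes where 3.03% of 14121 genes tested were called higher. Icos (1.69 ± 0.54, adjusted p = 0.0606), Cd274 (1.30 ± 0.40, adjusted p = 0.0548), Ctla4 (1.33 ± 0.44, adjusted p = 0.0689) and Icosl (1.16 ± 0.43, adjusted p = 0.0941) had log2 fold changes above 1 without passing. The ligands called in CD4+ TILs had the smallest values here, 0.67 ± 0.52 for Cd80 and 0.71 ± 0.48 for Pdcd1lg2 (adjusted p = 0.38 and 0.312). Whether the genotype difference itself differs between CD4+ and CD8+ TILs was not tested. With each library left out in turn, Cd86 was called in 7 of 8 fits, failing without Yap-cKO library 2, and Cd28 in 2 of 8, without WT library 3 or Yap-cKO library 3. DESeq2 called 6 of the 8 genes, all but Cd80 and Pdcd1lg2.

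Myeloid cells carry Cd86 and Cd274, and their markers moved with genotype in CD8+ TILs. All 12 macrophage and monocyte markers had positive log2 fold changes there, and 8 were called higher where 3.03% of all genes tested were. Their summed level was 301 to 725 CPM in WT libraries and 779 to 2082 CPM in Yap-cKO libraries. None of the 12 was at or under 3 counts in every library of either group. In CD4+ TILs the same sum was 290 to 776 CPM in WT libraries and 121 to 635 CPM in Yap-cKO libraries, and 1 of the 12 had a positive log2 fold change. Dendritic cell markers (10 genes) summed to 48.8 to 101 CPM (WT) and 47.0 to 123 CPM (Yap-cKO) in CD4+ TILs, and to 60.5 to 181 CPM (WT) and 70.2 to 96.6 CPM (Yap-cKO) in CD8+ TILs. The part of these cells in the ligand values of the T-cell sorts was not tested.

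**Figure D3:**
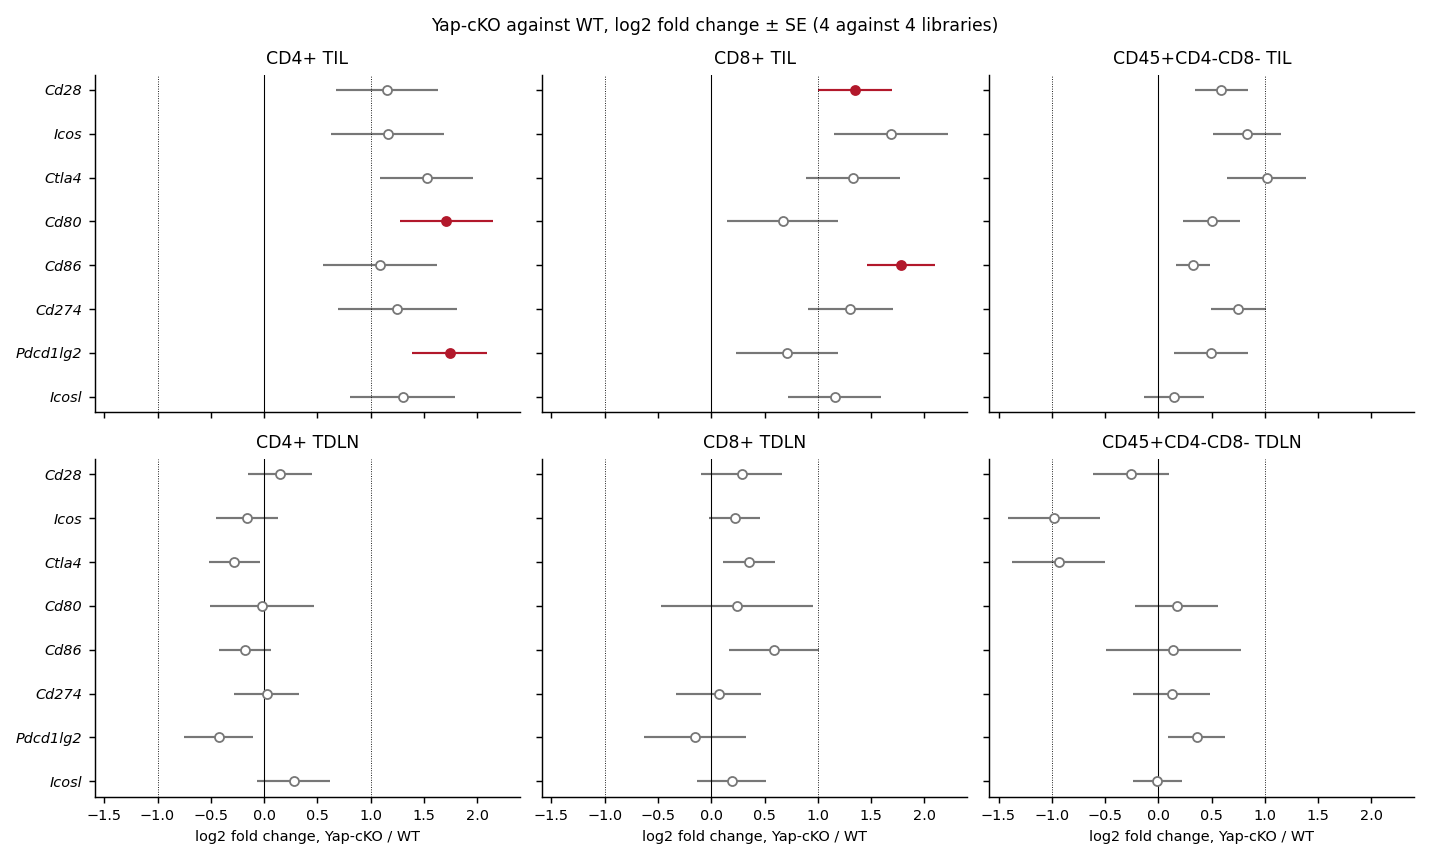
Log2 fold change of Yap-cKO over WT with its SE for the 8 genes in each sort and tissue (4 against 4 libraries), with genes past the thresholds marked. In TILs all 8 values are above 0 in each sort. In TDLNs 3 of the 8 are above 0 in CD4+ cells, 7 in CD8+ cells and 4 in CD45+ cells.

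These differences depended on how libraries were scaled. TMM scaling takes as reference the genes that remain after the most extreme fold changes and levels are trimmed. The T-cell sorts of WT tumors held more melanoma RNA and less T-lineage RNA. When each library was scaled on the 15 T-lineage markers instead, the median log2 fold change of all genes moved from 0.14 to -1.08 in CD4+ TILs and from 0.078 to -1.06 in CD8+ TILs. Under this scaling 0 of the 8 genes were called in either sort. In CD4+ TILs the 8 values were still above 0, from 0.22 for Cd86 to 0.80 for Cd80 and 0.72 for Pdcd1lg2 (adjusted p = 0.267 for the latter). In CD8+ TILs Icos (0.80) and Cd86 (0.72) were the highest, Cd28 was at 0.38, and Cd80 (-0.46) and Pdcd1lg2 (-0.14) turned below 0. Each of these values lay above the median of all genes under the same scaling. With a covariate for the Y-linked genes 0 were called in either sort, with log2 fold changes of 1.72 for Pdcd1lg2 and 1.78 for Cd80 in CD4+ TILs (adjusted p = 0.37 and 0.499). With a covariate for non-immune markers in CD4+ TILs, which ran along with genotype, Cd28 (-2.45), Cd86 (-3.09) and Cd274 (-3.15) were called lower, all at an adjusted p of 0.0463.

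**Figure D4:**
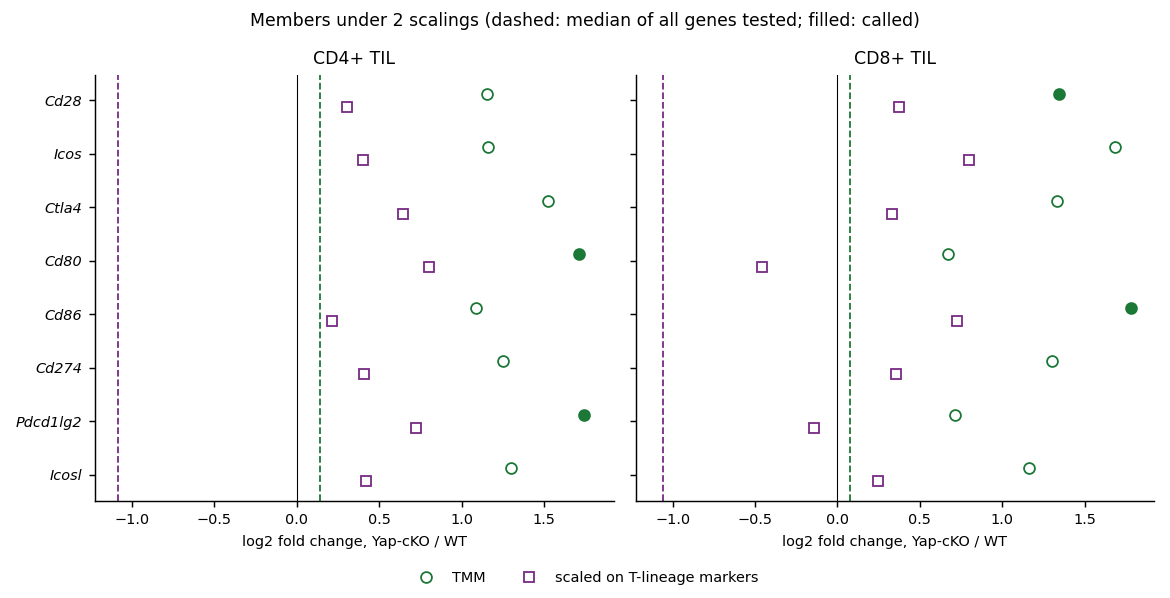
Log2 fold change of Yap-cKO over WT in CD4+ and CD8+ TILs for the 8 genes under TMM scaling and under scaling on 15 T-lineage markers, with the median of all genes tested under each. The change of scaling lowers the genes and the median together, from 0.14 to -1.08 for the median in CD4+ TILs and from 0.078 to -1.06 in CD8+ TILs.

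Ratios between genes of one library do not depend on scaling. The ratio of Ctla4 to Cd28 in CD4+ TILs had a mean log2 of 0.70 ± 0.24 (SD, n = 4) in WT and 1.10 ± 0.24 in Yap-cKO libraries, a difference of 0.40 (exact permutation test, two-sided, p = 0.0571, adjusted p = 0.98 over 24 ratios). The smallest p that 4 against 4 libraries can give is 0.0286. Against the summed T-lineage markers in CD4+ TILs, the log2 ratio differed by -0.031 for Cd28 (exact p = 1), less than 0.01 in size for Icos (exact p = 1) and 0.37 for Ctla4 (exact p = 0.571). Yap-cKO CD4+ TIL library 3 had the lowest of these ratios, at -7.01 for Cd28, -6.01 for Icos and -5.57 for Ctla4. Yap-cKO libraries 1, 2 and 4 lay above all WT libraries for each of these genes. With 1 library left out, the differences ran from -0.37 to 0.66, from -0.45 to 0.66 and from 0.03 to 0.95. In CD8+ TILs the differences for Cd28, Icos and Ctla4 were 0.36, 0.58 and 0.30 (exact p = 0.429, 0.371 and 0.571). Among CD45+ cells, the ratio of Cd86 to Cd80 differed far more by tissue than by genotype, with a mean log2 of 5.48 ± 1.71 in WT TDLNs, 5.43 ± 1.06 in Yap-cKO TDLNs, 2.04 ± 0.42 in WT TILs and 1.78 ± 0.18 in Yap-cKO TILs. None of the 24 ratios differed between genotypes at an adjusted p under 0.05.

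In CD45+ TILs Yap1 itself was at 2.74 to 5.32 CPM in WT libraries and 1.52 to 2.03 CPM in Yap-cKO libraries (log2 fold change -1.20 ± 0.29, adjusted p = 0.0773). The melanoma markers of this sort summed to 1086 to 1800 CPM in WT libraries and 130 to 508 CPM in Yap-cKO libraries. The part of tumor-cell RNA in this Yap1 difference was not tested. In CD45+ TILs 0 of the 8 genes were called and 0.991% of 13628 genes tested were called in either direction. Ctla4 (1.02 ± 0.37) and Icos (0.83 ± 0.32) had the largest values (adjusted p = 0.201 and 0.221), at levels of 2.51 to 11.3 CPM and 3.18 to 13.7 CPM. Cd274 was at 136, 87.0, 94.2 and 203 CPM in WT libraries and at 189, 259, 209 and 234 CPM in Yap-cKO libraries (log2 fold change 0.75 ± 0.26, adjusted p = 0.184), and WT library 4 overlapped the Yap-cKO range. Cd86, whose genotypes did not overlap, differed by 0.33 ± 0.16 (adjusted p = 0.307). B cell markers of this sort summed to 948 to 1915 CPM (WT) and 275 to 1002 CPM (Yap-cKO). Dendritic cell markers summed to 861 to 1703 CPM and 1343 to 2011 CPM. Macrophage and monocyte markers summed to 24251 to 37520 CPM and 21487 to 31852 CPM. The part of these cell types in the genotype differences was not tested. At an unadjusted p under 0.05 were 4 of the 8 genes (Cd28, Icos, Ctla4 and Cd274), while DESeq2, and edgeR with any single library left out, gave 0 calls as well.

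In TDLNs the log2 fold changes of Yap-cKO over WT were smaller in the T-cell sorts. Of the 8 genes, 0 were called in CD4+ cells, where 0.0462% of all genes tested were, and the log2 fold changes ran from -0.42 ± 0.32 for Pdcd1lg2 to 0.28 ± 0.34 for Icosl (adjusted p = 0.97 for both). In CD8+ TDLN cells 0 of 8 were called against 0.0158% of all genes, and the values ran from -0.15 ± 0.48 for Pdcd1lg2 to 0.59 ± 0.42 for Cd86 (adjusted p = 0.999 for both). In CD45+ TDLN cells 0 of 8 were called against 0.0596% of all genes. Icos (-0.98 ± 0.43) and Ctla4 (-0.94 ± 0.43) had the largest differences there, both at an adjusted p of 0.998. At an unadjusted p under 0.05, 228, 120 and 391 of all genes passed in the CD4+, CD8+ and CD45+ comparisons, with Icos in CD45+ cells as the 1 among the 8. DESeq2 called 0 of the 8 in each.

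Whether the effect of the deletion differs between tumor and lymph node was tested as an interaction over 16 libraries of a sort. In CD4+ cells the term was positive for all 8 genes, from 1.01 ± 0.60 for Cd28 to 2.16 ± 0.46 for Pdcd1lg2, and Pdcd1lg2 alone was called (adjusted p = 0.0312), with 0.205% of 15087 genes called in that direction. Ctla4 was next at 1.80 ± 0.51 (adjusted p = 0.0842). Under T-lineage scaling 0 were called. With each of the 16 libraries left out in turn, Pdcd1lg2 was called in 6 of 16 fits. In CD8+ cells the term ran from 0.41 ± 0.90 for Cd80 to 1.43 ± 0.60 for Icos (adjusted p = 0.27 to 0.869), with 0 of the 8 genes (by DESeq2 too, and 3 at an unadjusted p under 0.05) and 0.422% of all genes called. In CD45+ cells Ctla4 (1.95 ± 0.59) and Icos (1.81 ± 0.55) had the largest terms, at adjusted p-values of 0.31 and 0.311, and 0% of 14871 genes were called by edgeR, where 1246 had an unadjusted p under 0.05. DESeq2 called 119 genes for this term, 0 of them among the 8, and edgeR without a count filter 2.

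Between tissues, Cd28 was lower in TILs than in TDLNs in both T-cell sorts of WT mice. In WT CD4+ T cells, Cd28 (log2 fold change of TIL over TDLN -1.65 ± 0.33, adjusted p = 0.00155) and Cd86 (-1.07 ± 0.35, adjusted p = 0.0246) fell, 2 of 8 genes where 14.4% of all genes tested fell. Icos (-0.96 ± 0.37, adjusted p = 0.0486) and Pdcd1lg2 (0.95 ± 0.34, adjusted p = 0.0391) passed on the adjusted p but not on the fold. Cd80 had a value of 1.05 ± 0.46 (adjusted p = 0.08). In WT CD8+ T cells, Icos (-1.69 ± 0.39, adjusted p = 0.00445) and Cd28 (-1.13 ± 0.40, adjusted p = 0.0384) fell, again 2 of 8, beside 15.2% of all genes. WT Icos was at 357, 218, 203 and 325 CPM in CD8+ TDLN cells, above all 4 WT CD8+ TIL libraries. Cd28 was called in 8 of 8 fits without 1 library in CD4+ cells and in 2 of 8 in CD8+ cells, Cd86 in 4 of 8 in CD4+ cells, and Icos in 8 of 8 in CD8+ cells.

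The T-lineage scaling turned part of this comparison. It moved the median log2 fold change of all genes from -0.025 to 1.44 in WT CD4+ cells and from -0.021 to 1.47 in WT CD8+ cells, and the split of calls over all genes from 3203 higher and 2024 lower to 7342 higher and 150 lower in CD4+ cells. Cd28 was then at -0.47 in CD4+ and 0.093 in CD8+ cells, Cd86 at 0.13 in CD4+ cells and Icos at -0.48 in CD8+ cells, none of them called. Instead Cd80 (2.24), Pdcd1lg2 (2.23) and Icosl (1.75) were called higher in WT CD4+ TILs and Cd80 (3.07) and Pdcd1lg2 (2.00) in WT CD8+ TILs. The falls of Cd28, Cd86 and Icos in WT TILs did not hold under this scaling, while relative to the median of all genes these genes were lower under both.

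In Yap-cKO T cells, Pdcd1lg2 and Cd80 rose in TILs over TDLNs in both sorts. In CD4+ cells Pdcd1lg2 (3.00 ± 0.36, adjusted p = 0.00048), Cd80 (2.73 ± 0.51, adjusted p = 0.00395) and Icosl (1.54 ± 0.40, adjusted p = 0.0193) rose in TILs over TDLNs, 3 of 8 genes where 12.4% of all genes rose. Pdcd1lg2 went from 6.37, 5.65, 3.73 and 2.96 CPM in TDLNs to the 26.5 to 45.3 CPM given above, and Cd80 from 0.927, 1.92, 3.29 and 1.42 CPM to 5.52 to 16.8 CPM, both without overlap. In CD8+ cells Cd80 (2.10 ± 0.59, adjusted p = 0.0297) and Pdcd1lg2 (1.61 ± 0.42, adjusted p = 0.0215) rose, 2 of 8 genes beside 10.9% of all genes. Pdcd1lg2 was at 3.19, 3.46, 1.75 and 7.85 CPM in Yap-cKO CD8+ TDLN cells and at 11.5, 12.6, 10.4 and 12.3 CPM in TILs. Cd28 (-0.68 ± 0.47 in CD4+ and -0.09 ± 0.28 in CD8+ cells), Icos (0.31 ± 0.49 and -0.24 ± 0.40) and Ctla4 (1.03 ± 0.44 and 0.51 ± 0.35) were not called. Of the other ligands, Cd86 (0.13 ± 0.49 and 0.52 ± 0.30) and Cd274 (0.82 ± 0.55 and 0.23 ± 0.40) were not called in either sort, nor was Icosl in CD8+ cells (0.47 ± 0.38). The calls in both Yap-cKO sorts were the same 5 under T-lineage scaling, while in CD8+ cells Cd80 was called in 2 and Pdcd1lg2 in 4 of 8 fits without 1 library. Macrophage and monocyte markers summed to 13.6 to 39.9 CPM in all T-cell TDLN libraries, against 121 to 2082 CPM in the T-cell TIL libraries, and their part in the ligand values was not tested.

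**Figure D5:**
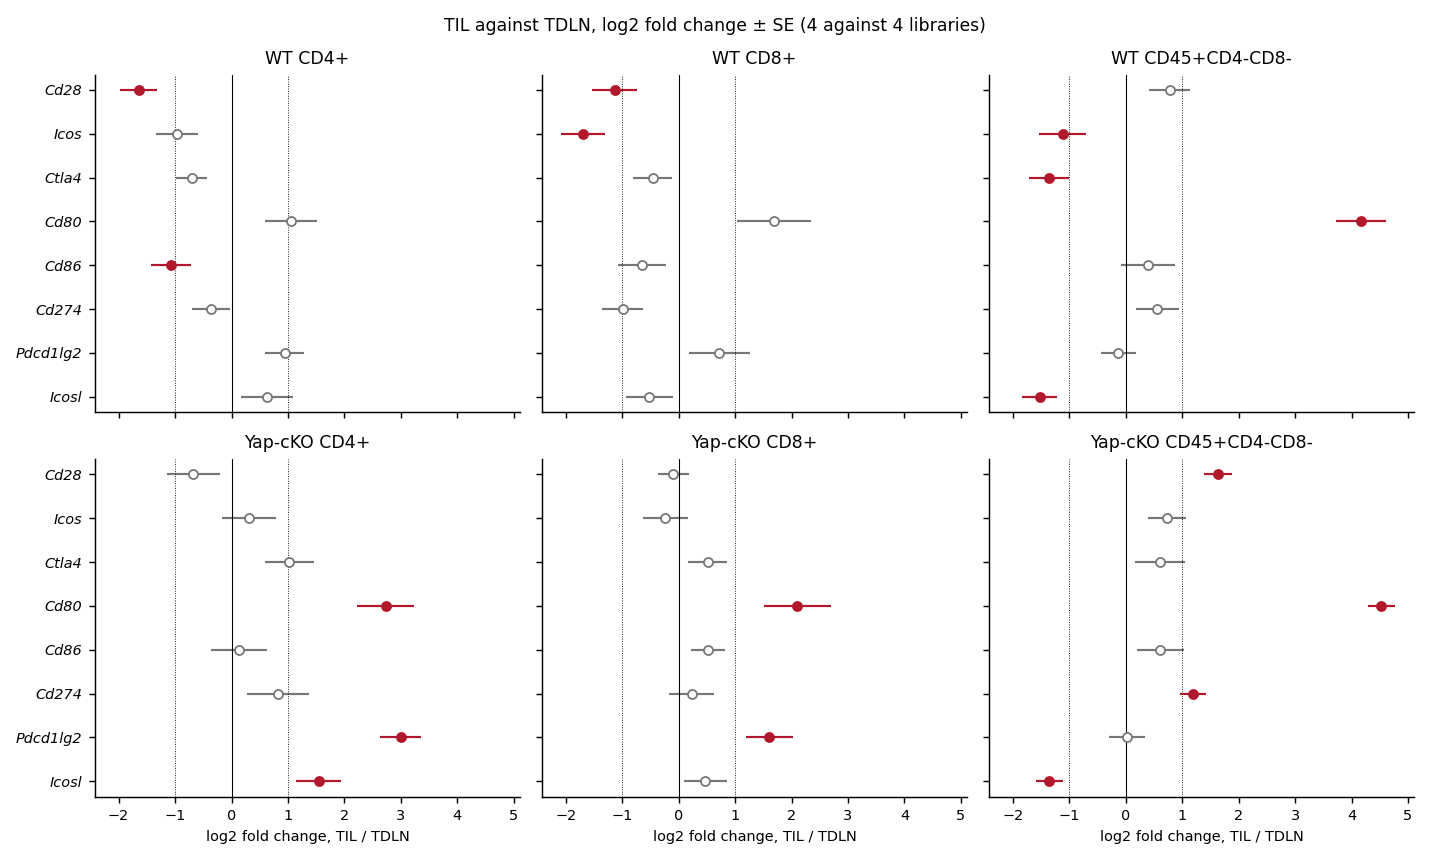
Log2 fold change of TIL over TDLN with its SE for the 8 genes in each sort and genotype (4 against 4 libraries), with genes past the thresholds marked. Cd80 has the highest values, 4.17 and 4.53 in CD45+ cells, and Icosl falls in CD45+ cells (-1.53 and -1.35) but rises in Yap-cKO CD4+ cells (1.54).

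The largest tissue difference of the 8 genes was that of Cd80 in CD45+ cells. Cd80 rose in TILs by 4.17 ± 0.44 in WT (adjusted p = 6.63e-05), the 1 gene of 8 that rose beside 21.9% of all genes, and by 4.53 ± 0.24 in Yap-cKO mice (adjusted p = 1.16e-07). In WT, Icosl (-1.53 ± 0.32, adjusted p = 0.0026), Ctla4 (-1.36 ± 0.35, adjusted p = 0.00819) and Icos (-1.12 ± 0.42, adjusted p = 0.0469) fell, 3 of 8 where 18% of all genes fell. With each library left out in turn, Icos was called in 4 of 8 fits, against 8 of 8 for Cd80, Icosl and Ctla4. Ctla4 in these cells was at 4.93, 12.6, 6.85 and 9.39 CPM in TDLNs and 2.85, 3.84, 4.28 and 2.51 CPM in TILs, levels beside which the T-lineage markers also fell in 7 of 15 cases. In Yap-cKO mice Cd80, Cd28 (1.64 ± 0.25, adjusted p = 0.000198) and Cd274 (1.19 ± 0.23, adjusted p = 0.0010) rose, 3 of 8 where 21.8% of all genes rose, and Icosl fell (-1.35 ± 0.24, adjusted p = 0.000642), 1 of 8 where 18.5% did. Pdcd1lg2 had values of -0.14 ± 0.31 in WT and 0.02 ± 0.32 in Yap-cKO mice. The make-up of this sort differed by tissue, with macrophage and monocyte markers at 178 to 4108 CPM in TDLNs and 21487 to 37520 CPM in TILs and dendritic cell markers at 55.6 to 225 CPM and 861 to 2011 CPM, so a change per cell and a change in cell types cannot be told apart here.

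CD4+ and CD8+ T cells of one tissue and genotype were compared last. Same-numbered CD4+ and CD8+ libraries deviated together in 3 of these 4 comparisons, so the values with the replicate number as a block are given beside them. In WT TDLNs Ctla4 was higher in CD4+ cells by 2.11 ± 0.24 (adjusted p = 0.00084), 1 of 8 genes where 2.16% of all genes were higher, from 319, 439, 410 and 421 CPM against 75.3, 104, 66.9 and 121 CPM. With the block, Icos (1.03, adjusted p = 0.00659) and Cd28 (1.23, adjusted p = 0.0139) were called as well as Ctla4 (2.14, adjusted p = 7.9e-05). In Yap-cKO TDLNs not every same-numbered pair deviated together (r from -0.0761 to 0.674). Of these libraries, 3 of 4 correlated best with their own number, and the block value is not given. Where it is given, 4 of 4 did so in WT TDLNs, 3 of 4 in Yap-cKO TILs and 2 of 4 in WT TILs. In Yap-cKO TDLNs Ctla4 was called alone (1.47 ± 0.26, adjusted p = 0.0143), beside 1.2% of all genes, and in 6 of 8 fits without 1 library.

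In the tumor, 0 of the 8 genes were called between WT CD4+ and CD8+ TILs and 0.119% of 14266 genes tested were. Ctla4 had a value of 1.86 ± 0.39 (adjusted p = 0.142) and Icos of 1.75 ± 0.48 (adjusted p = 0.425), the 2 of 8 at an unadjusted p under 0.05. DESeq2 called 2 of the 8, and with the replicate block Ctla4 and Icos were called, at 1.93 (adjusted p = 0.0321) and 1.77 (adjusted p = 0.0269). In Yap-cKO TILs Pdcd1lg2 was higher in CD4+ cells (1.64 ± 0.27, adjusted p = 0.0108), 1 of 8 genes, where 1.36% of all 13902 genes tested were higher, and it was called in 8 of 8 fits without 1 library. Ctla4 had a value of 2.04 ± 0.51 (adjusted p = 0.0771), which the block called at 2.00 (adjusted p = 0.0121). Cd86 was the 1 gene with a negative value in each tumor comparison, -0.59 ± 0.38 in WT and -1.29 ± 0.51 in Yap-cKO mice, and it was called in neither.

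Transcript shares showed which annotated products the reads supported. Cd274 and Pdcd1lg2 had 1 transcript each in the files. Cd28-201, the coding transcript, held a median of 82.6% of Cd28 TPM over 48 libraries (range 59.1% to 100%), and the retained-intron transcript Cd28-203 held most of the rest. In WT CD8+ cells the Cd28-203 share was 13.7% ± 4.05 in TDLNs and 25.7% ± 3.30 in TILs (SD, n = 4), ranging from 11.3% to 19.8% and from 21.9% to 29.0%. The Yap-cKO CD8+ shares were 14.2% ± 7.97 and 25% ± 4.13. Ctla4-201 held a median of 100% of Ctla4 TPM. The 2 coding Icos transcripts were about even, with Icos-201 at a median of 48.6% and Icos-202, which has a longer annotated sequence of 3241 against 810 bases, at 51.4%. Cd80 reads were spread over Cd80-202, Cd80-201 and Cd80-203 with medians of 44.8%, 35.1% and 15.5% in the 34 libraries with at least 30 counts. For Cd86, the coding Cd86-201 held a median of 76.9%, and the Cd86-203, annotated as a processed transcript, was at 44.9% ± 25.7 in WT and 42.3% ± 24.2 in Yap-cKO CD45+ TDLN cells from 16% ± 3.01 and 12.5% ± 2.27 in CD45+ TILs. These shares are estimates from Salmon and were not tested.

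The genes with the most similar pattern were found by Pearson's correlation of log2 CPM over the 48 libraries, among 16869 genes. The points share libraries, sorts and depth, so r is a description of the 12 groups. Cd28 was closest to Tnfsf8 (0.98), Sntb1 (0.98) and Camk4 (0.97), Icos to Camk4 (0.98), Cd28 (0.97) and Cd6 (0.97), and Ctla4 to Icos (0.96), Gata3 (0.96) and Tnfsf11 (0.96). Among the ligands, Cd80 was closest to Cysltr1 (0.94), Ccr2 (0.94) and Shtn1 (0.93), and Cd86 to Ctsc (0.91), Gdi2 (0.90) and Ctss (0.90). Cd274 was closest to Pmaip1 (0.90), Map3k8 (0.87) and Antxr2 (0.86), Pdcd1lg2 to Slc15a3 (0.90), Adap1 (0.87) and Ncf4 (0.86), and Icosl to Rubcnl (0.96), Ciita (0.96) and Bcl11a (0.95). Between the 8 genes, Cd86 and Cd274 had r = 0.82, whereas the neighboring genes Cd274 and Pdcd1lg2 had r = 0.53 and the pair Cd80 and Cd86 had r = 0.57.

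The surrounding pathway was read from 4 lists. Of 26 genes of CD28 signaling, 25 had positive log2 fold changes of Yap-cKO over WT in CD4+ TILs (median 0.84, beside 0.14 over all genes) and 2 were called higher, where 1.36% of all genes were. These were Nfkb1 (1.45 ± 0.38, adjusted p = 0.0406), an NF-kappa-B subunit, and Bcl2l1 (1.08 ± 0.30, adjusted p = 0.0488), a survival gene induced by CD28. In CD8+ TILs 25 of 26 were positive as well (median 0.90, beside 0.078) and 6 were called higher where 3.03% of all genes were, led by Vav3 (1.70 ± 0.29, adjusted p = 0.018), a guanine nucleotide exchange factor, Rel (1.64 ± 0.39, adjusted p = 0.0274), another NF-kappa-B subunit, and Lcp2 (1.14 ± 0.27, adjusted p = 0.0278), which encodes the adaptor SLP-76. The T-lineage markers were positive in 15 of 15 cases in both sorts, with medians of 0.93 and 0.87.

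Of all genes tested, 1.36% were called higher and 6.66% lower in CD4+ TILs, and 3.03% and 9.14% in CD8+ TILs. Of 10 genes of CTLA-4 and PD-1 signaling and trafficking, 0 were called in CD4+ TILs and 1 in CD8+ TILs, Cblb (1.46 ± 0.40, adjusted p = 0.0409), a ubiquitin ligase that restrains T-cell activation. Of 8 genes of interferon and JAK-STAT signaling, which induces Cd274, 0 were called in CD4+ TILs and 2 in CD8+ TILs, the kinases Jak2 (1.54 ± 0.37, adjusted p = 0.0273) and Jak1 (1.33 ± 0.33, adjusted p = 0.0293). Among 9 other genes listed with the CD28 and B7 family, 6 were tested in each sort. Rgmb, a binding partner of PD-L2, fell in CD4+ TILs (-1.5 ± 0.35, adjusted p = 0.0272). In CD8+ TILs Btla, an inhibitory receptor, rose (1.89 ± 0.43, adjusted p = 0.0237) and Cd276, which encodes B7-H3, fell (-3.53 ± 0.69, adjusted p = 0.0185). Melanoma markers summed to means of 11193 CPM (WT) and 1064 CPM (Yap-cKO) in CD4+ TILs, and 10194 and 1056 CPM in CD8+ TILs. Endothelial and fibroblast markers summed to means of 461 and 118 CPM in CD4+ TILs, and 611 and 76.6 CPM in CD8+ TILs. The part of such RNA in the falls of Rgmb and Cd276 was not tested. In CD45+ TILs and in all 3 TDLN sorts, 0 genes of the 4 lists were called.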

How the data were processed

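Transcripts were quantified by the authors with Salmon (0.9.1 per the submitters' processing notes, which also name FastQC and Trimmomatic) from SMART-Seq v4 paired-end libraries against the mouse GRCm38 transcriptome. The deposited values are estimated counts per transcript, without normalization, the TPM that Salmon scaled within a library, and the effective length. Reads carry no molecular identifiers, and the strand setting is not given in the sources used here.

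Transcripts were matched to GENCODE M21 by identifier (111787 of 112092). The deposited estimated counts were summed per gene and rounded. TPM were summed for levels between genes, and effective lengths gave the length offsets of an alternative. Unmatched transcripts held 0.0488% to 0.18% of counts. Values of other samples were in 0 columns.

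edgeR 4.0.16 (R 4.3.3; TMM, quasi-likelihood F test) was run on genes reaching 10 counts in 4 or more libraries of a fit, with p-values adjusted by Benjamini-Hochberg over all genes tested and calls made at 0.05 with an absolute log2 fold change above 1. Each fit used the 8 libraries compared, or 16 for an interaction. CPM used TMM over 48 libraries. Ratios (pseudocount 0.5) were compared by exact permutation tests. The main edgeR fits of genotype in CD4+ TILs, CD8+ TILs and CD4+ TDLN cells were tested on simulated counts. So was the DESeq2 fit in CD8+ TILs, and the other steps were not. Alternatives were DESeq2 1.42.0, no count filter, length offsets, the replicate number as a block and T-lineage scaling. Others were Y-linked and non-immune covariates, calls on the adjusted p only and leaving out each library. The interactions were also fitted with limma 3.58.1 (voom), with a correlation between libraries of the same genotype and replicate number. Same-numbered libraries were taken as paired where every correlation of deviations from group means exceeded 0.1. This held in 3 of 4 comparisons of CD4+ with CD8+ cells, where the pairing is read from the data (r from -0.0761 to 0.786 over all 4), and in 0 of 6 genotype (-0.69 to 0.528) and 0 of 6 tissue comparisons (-0.401 to 0.452).

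All 8 genes were named in every comparison. From the 4 pathway lists up to 3 called genes per direction were named by smallest p, with the 3 genes most correlated with each of the 8. The genes, lists and tests were chosen with earlier results of these data known. The search for 1 further promoter motif is not reported here.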

Additional observations from a re-analysis of the deposited data

Results flagged for a closer look

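Of 96 sets of 4 libraries (8 genes in 12 groups), 4 held a library that stood apart from the other 3 by Dixon's test at the 95% level, where chance gives about 5% of sets, or 1 in 20. Icos was at 394 CPM in Yap-cKO CD8+ TDLN library 4, beside 286, 296 and 299.97 CPM in the others. Ctla4 was at 160 CPM in Yap-cKO CD8+ TDLN library 1, beside 101 to 104 CPM. Cd274 was at 111 CPM in Yap-cKO CD8+ TIL library 1, beside 39.5 to 44.7 CPM. Icosl was at 12.8 CPM in WT CD8+ TDLN library 2, beside 6.66 to 7.12 CPM. The genotype difference of Pdcd1lg2 in CD4+ cells differed between tumor and lymph node, with an interaction of 2.16 on the log2 scale (edgeR adjusted p = 0.0312).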

How the results depend on the processing

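Of 2244 values of single genes under the alternatives, 1997 kept direction and side of the thresholds, 73 lost and 71 gained a call, 97 changed sign without a call and 6 called values changed sign. The number of genes called in CD4+ TILs between genotypes (2) was 1 with the replicate block, 0 with the Y-linked covariate, 0 with T-lineage scaling and 3, all lower, with the non-immune covariate (Cd28 -2.45, Cd86 -3.09, Cd274 -3.15), where Cd80 at -0.62 and Pdcd1lg2 at 1.46 were not called. In CD8+ TILs (2) it was 6 with DESeq2, 5 without a count filter, and 0 with the replicate block, the Y-linked covariate, the non-immune covariate and T-lineage scaling. The replicate numbers do not pair the genotypes or the tissues, and same-numbered libraries correlated best with each other in at most 1 of 4 cases between genotypes and 2 of 4 between tissues. Between tissues, WT CD4+ cells (2 lower) gave 4 on the adjusted p alone, 4 with the block and 3, all higher, with T-lineage scaling (Cd86 0.13), and WT CD8+ cells (2 lower) gave 1 with the block and 2, both higher, with T-lineage scaling (Cd28 0.093). Between CD4+ and CD8+ cells, WT TILs (0) gave 2 with DESeq2, 1 without a filter and 2 with the block, Yap-cKO TILs (1) gave 3, 2 and 2, and WT TDLNs (1) gave 2 with DESeq2 and 3 with the block. The CD4+ interaction (1) gave 2 with DESeq2, 0 with the block and 0 with T-lineage scaling. It gave 1 with limma and a correlation within genotype and replicate number. The counts of the other comparisons stayed within 1.5 times. By Spearman's rho 12 of 24 similar genes stayed in the top 3.

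With 1 library left out, counts ran from 0 to 7 in CD4+ TILs, 0 to 5 in CD8+ TILs and 0 to 0 in the 4 other genotype comparisons, from 1 to 4, 1 to 3 and 3 to 5 between tissues in WT CD4+, CD8+ and CD45+ cells and 2 to 5, 0 to 2 and 4 to 4 in Yap-cKO mice. Between CD4+ and CD8+ cells they ran from 0 to 0 in WT TILs, 1 to 3 in Yap-cKO TILs, 1 to 3 in WT TDLNs and 0 to 2 in Yap-cKO TDLNs, where Cd86 alone, lower in CD4+ cells, was called without CD8 library 4 (1). The interactions gave 0 to 3, 0 to 0 and 0 to 0. Of the 24 ratios, 11 changed sign. The causes were not tested. Levels under 0.124 to 0.237 CPM cannot be told from 0.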
